A study of Mus musculus with 20 samples.

Results

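The report describes 10 target genes of the transcription factor p53 in mouse soleus muscle: Cdkn1a, Ccng1, Mdm2, Trp53inp1, Phlda3, Bbc3, Bax, Aen, Eda2r and Zmat3. They were chosen by symbol as established p53 targets, with earlier results of these data known. Each matched 1 row, by Ensembl identifier, among the 56941 gene rows of the count table. All 10 passed the filter on low counts, as did 16778 genes in all.

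RNA was sequenced from whole soleus muscle, a slow postural muscle of the hind limb, of C57BL/6J mice. The space group of 10 mice received ionizing radiation, a stress hormone in the diet and 14 days of hind-limb unloading, in which the hind limbs bear no weight. The 10 control mice were sham-irradiated and housed in a similar way. All 3 exposures coincided, so what each did alone cannot be told apart. Radiation dose, animal age and how the replicates were handled are not given in the labels, and the p-values cover the spread between these 20 samples.

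p53, the product of Trp53, is held at low level by the ubiquitin ligase Mdm2 and is stabilised after DNA damage and other stress. It binds paired copies of a short DNA element near its target genes, which arrest the cell cycle, repair DNA, limit p53 itself or start apoptosis. Several of these genes have other inducers too. In muscle, Cdkn1a is also known as a gene of disuse and denervation and as a target of FoxO factors and the glucocorticoid receptor.

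Across the 10 genes there was no common direction. Cdkn1a, Eda2r, Bbc3 and Trp53inp1 were 2.06-fold to 3.99-fold higher in space muscles, and Mdm2 was 1.22-fold higher. Zmat3, Phlda3, Aen and Ccng1 were 1.12-fold to 1.52-fold lower, and Bax did not pass the test. Thus 5 of 10 rose and 4 of 10 fell at a Benjamini-Hochberg adjusted p under 0.05 in edgeR's quasi-likelihood test. In the same fit 57.6% of all tested genes were called, 28.7% higher and 28.9% lower, so 9 called genes of 10 must be read against a high background. The median log2 fold change over the 10 genes was 0.24, against 0.023 over all tested genes. The median absolute log2 fold change was 0.56 over the 10 genes and 0.27 over all tested genes. Since the 10 genes were chosen with earlier results known, these medians only describe them. Values of space and control libraries did not overlap for 3 genes that rose and 1 that fell. Over all tested genes, 6.48% lay wholly above the control range, 11.0% wholly below it and 17.4% one or the other.

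**Figure D1:**
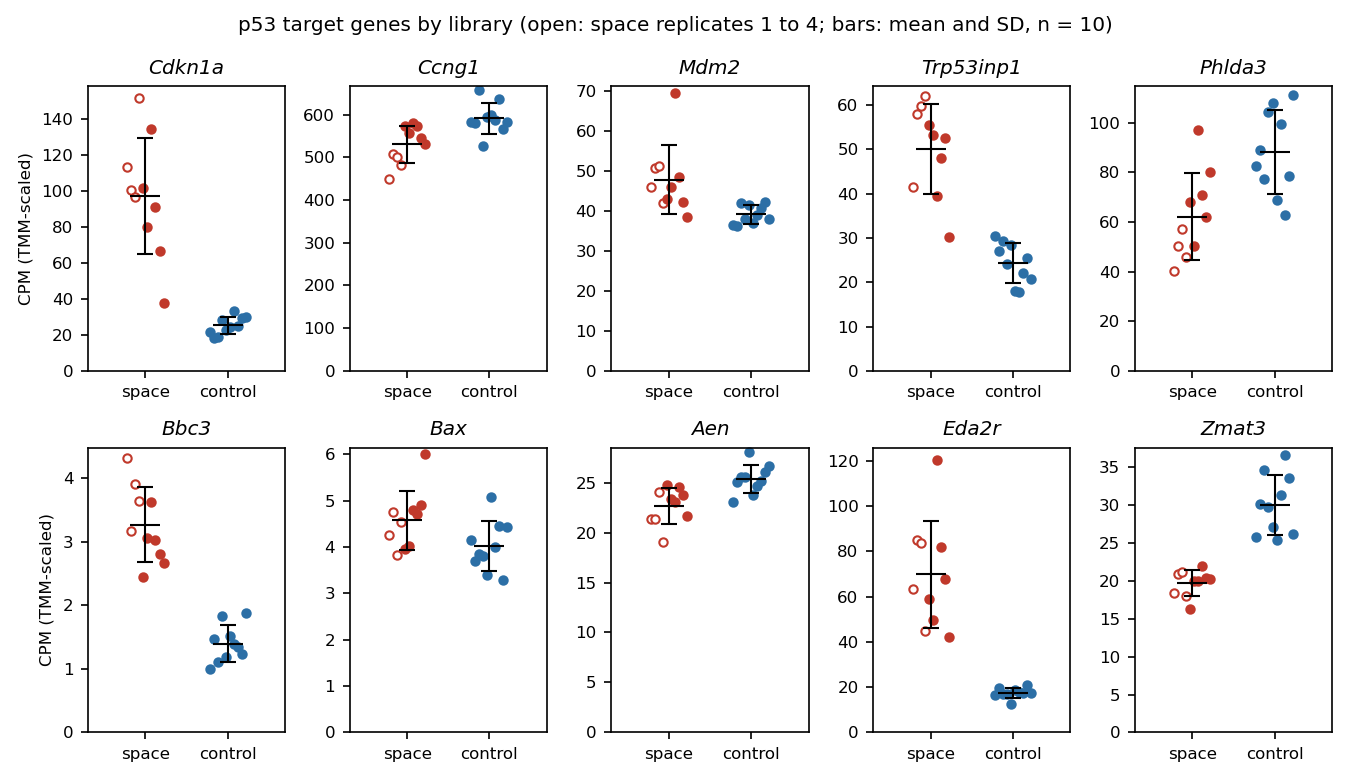
Level of each p53 target gene in every library, in TMM-scaled CPM on a linear axis from 0, with space on the left and control on the right of each panel. Points are libraries, open points are space replicates 1 to 4, and black bars give the mean and SD over 10 libraries; Cdkn1a, Bbc3, Eda2r and Zmat3 have no overlap between the groups.

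Levels are given as CPM, the share of a library's counts, scaled by edgeR's TMM correction for library composition. Library totals lay between 17336017 and 43424464 counts. The 4 space libraries numbered 1 to 4 stood apart in myelin genes. They also held the highest sums of the group for 4 adipocyte markers, with 70.5 to 169 CPM, 9.72 to 68.1 CPM in space replicates 5 to 10 and 11.0 to 87.2 CPM in control libraries. The 8 tested denervation genes summed to 199 to 261 CPM in space replicates 1 to 4, 284 to 386 CPM in replicates 5 to 10 and 149 to 204 CPM in control libraries. Hdac4 held the largest part of these sums, with means of 179.5 CPM in space and 79.0 CPM in control muscles. The 9 markers of myelinating Schwann cells summed to 515 to 1498 CPM in space replicates 1 to 4 and 94.5 to 183 CPM in space replicates 5 to 10, against 95.1 to 193 CPM in control libraries. All 9 were called higher over 10 space libraries, and 3 were higher and 1 lower without replicates 1 to 4. Of 9 macrophage markers 3 were higher and none lower, with sums of 71.5 to 147 CPM in space and 52.5 to 104 CPM in control muscles. All 5 tendon cell markers were lower, 3 of 4 satellite cell markers were higher, and of 8 endothelial markers 1 was higher and 3 were lower. These counts stand beside 28.7% of all tested genes called higher and 28.9% lower. All 6 slow fibre genes were lower in space muscles, with sums of 7429 to 15826 CPM against 19561 to 27066 CPM in controls. All 5 fast fibre genes were higher, with sums of 29658 to 41985 CPM in space and 4496 to 9411 CPM in control muscles. The slow sums thus exceeded the fast sums in control muscles, and the reverse held in space muscles. Fibre genes therefore cannot check the labelled muscle in the space group. These are bulk samples, so fewer cells of a type and less RNA per cell cannot be told apart. The part of fibre type or immune cells in the results on p53 targets was not tested, and the relation of Cdkn1a to the myelin genes is given with the correlations. Each of the 10 targets is also given without space replicates 1 to 4, a comparison chosen after seeing the data. There, 51.3% of 17122 tested genes were called, 4310 higher and 4466 lower. The other genes named here kept their calls there unless a sentence says otherwise, apart from Trp53cor1, whose value there is not given.

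The start regions of the genes were read from RefSeq (GRCm38.p6), 250 bases before to 50 bases after each annotated start, and searched on both strands for the consensus p53 decamer, the element of 10 bases that p53 binds in pairs. RefSeq windows were at hand for 8 of the 10 genes, all but Zmat3 and Trp53inp1. These 8 genes have 12 windows, since some have several starts. An exact decamer was found in 6 of the 12 windows, in 5 genes (Cdkn1a, Mdm2, Ccng1, Bax and Aen), and in 8.36% of all 32851 windows. The Aen windows overlap and hold the same decamer, which is counted in each. These genes were chosen as established p53 targets, so the comparison is a description. A pair of decamers, with at most 1 mismatch over the pair and at most 13 bases between them, was found in 3 of the 12, in Cdkn1a, Ccng1 and Bax, and in 1.09% of all windows. The stretches are shown because the genes that hold a pair went different ways in the space muscles: Cdkn1a rose, Ccng1 fell and Bax did not pass the test. They are printed 5′ to 3′ on the strand of the gene, with the decamers in capitals.
Cdkn1a, chr17:29090886-29090967, plus strand: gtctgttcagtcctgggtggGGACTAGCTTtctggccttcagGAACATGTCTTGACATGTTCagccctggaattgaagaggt
Ccng1, chr11:40755442-40755501, minus strand: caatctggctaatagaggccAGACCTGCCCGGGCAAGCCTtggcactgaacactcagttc
Bax, chr7:45467070-45467130, minus strand: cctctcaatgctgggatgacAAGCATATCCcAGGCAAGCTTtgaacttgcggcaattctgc
Mdm2, chr10:117710915-117710964, minus strand: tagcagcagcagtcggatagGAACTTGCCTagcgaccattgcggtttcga

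The Cdkn1a stretch begins its first decamer 73 bases before the more upstream of 2 annotated starts. It holds 2 overlapping pairs, one without mismatch and 12 bases apart, the other with 1 mismatch and its decamers adjoining. The Ccng1 pair begins 195 bases before the start and the Bax pair 212 bases before it, each with 1 mismatch. Mdm2 has a single decamer, 186 bases before the start. No match was found in the windows of Eda2r, Bbc3 and Phlda3, nor at the second start of Cdkn1a, which says only that these letters are not in those windows.

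Cdkn1a (ENSMUSG00000023067.15) encodes p21, an inhibitor of cyclin-dependent kinases that arrests the cell cycle. Its lowest, median and highest levels were 37.9, 98.3 and 151 CPM in space muscles, against 18.3, 24.8 and 33.0 CPM in control muscles. Every space library lay above every control library, with space replicate 10 the lowest and replicate 4 the highest. The means were 97.1 ± 32.3 CPM in space and 25.2 ± 4.90 CPM in control muscles (SD, n = 10 each). Cdkn1a rose 3.87-fold (log2 fold change 1.95, SE 0.20, adjusted p = 5.55e-08, edgeR). The log2 fold change was 1.77 without space replicates 1 to 4. The spread differed as well as the level: the coefficient of variation was 33.3% over space and 19.4% over control libraries, a difference that was not tested. An antisense gene model, AC167363.2, shares 273 exonic bases with Cdkn1a, and had a median of 1 count against 1002.5 for Cdkn1a. Trp53cor1, the long noncoding RNA lincRNA-p21 transcribed from the DNA next to Cdkn1a, was looked up after its values were seen and was 2.31-fold higher. Its level was low, with means of 1.81 CPM in space and 0.773 CPM in control muscles.

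Ccng1 (ENSMUSG00000020326.8) encodes cyclin G1, which recruits a phosphatase to Mdm2. It was the most abundant of the 10 genes. Its lowest level, median and highest level were 448, 539 and 581 CPM in space muscles and 526, 585 and 656 CPM in control muscles. The ranges overlapped, although all 10 space libraries lay below the control mean. Ccng1 fell slightly (means 529.9 ± 44.4 CPM in space and 591 ± 35.7 CPM in control muscles, SD, n = 10 each; log2 fold change −0.16, adjusted p = 0.00939, edgeR). The call was lost without space replicates 1 to 4 (−0.070, adjusted p = 0.195) and with scaling by library size alone (−0.083, adjusted p = 0.0708).

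Mdm2 (ENSMUSG00000020184.16) encodes the ligase that marks p53 for degradation and is itself induced by p53. Lowest, median and highest levels were 38.6, 46.1 and 69.7 CPM in space muscles, against 36.2, 38.6 and 42.4 CPM in control muscles. Space libraries were above the highest control in 8 of 10 cases, and replicate 7 was far above the rest. Mdm2 rose 1.22-fold (means 47.9 ± 8.66 CPM in space and 39.2 ± 2.36 CPM in control muscles, log2 fold change 0.29, SE 0.079, adjusted p = 0.00245, edgeR). It did not pass edgeR's glmTreat test for a change beyond 1.2-fold (adjusted p = 0.356), which called 29.0% of all tested genes. Without space replicates 1 to 4 the log2 fold change was 0.30, and without replicate 7 it was 0.21.

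Trp53inp1 (ENSMUSG00000028211.12) encodes a stress protein that takes part in p53 activation and in autophagy. Its lowest, median and highest levels were 30.2, 52.9 and 62.0 CPM in space muscles and 17.8, 24.8 and 30.3 CPM in control muscles. Only space replicate 10 reached down into the control range. Trp53inp1 rose 2.06-fold (means 50.01 ± 10.2 CPM in space and 24.3 ± 4.59 CPM in control muscles, log2 fold change 1.04, SE 0.14, adjusted p = 7.56e-07, edgeR), and 0.94 on the log2 scale without space replicates 1 to 4.

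Phlda3 (ENSMUSG00000041801.6) encodes a protein that competes with Akt for membrane lipids. Its lowest level, median and highest level were 40.1, 59.7 and 97.3 CPM in space muscles and 62.8, 85.7 and 111 CPM in control muscles. Space libraries lay below the lowest control in 6 of 10 cases, while 1 was above the control mean. Phlda3 fell 1.42-fold (means 62.2 ± 17.4 CPM in space and 88.2 ± 16.9 CPM in control muscles, log2 fold change −0.51, SE 0.15, adjusted p = 0.00692, edgeR). Without space replicates 1 to 4 the log2 fold change was −0.30 and the call was lost (adjusted p = 0.115).

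The 3 genes of apoptosis did not move together. Bbc3 (ENSMUSG00000002083.14) encodes Puma, which binds and blocks the survival proteins of the Bcl2 family. It was scarce, with 21 to 173 reads per library, so counting error is larger than for the other genes that rose. Lowest, median and highest levels were 2.45, 3.12 and 4.32 CPM in space muscles, against 1.00, 1.36 and 1.88 CPM in control muscles. The groups did not overlap. Bbc3 rose 2.35-fold (means 3.27 ± 0.592 CPM in space and 1.40 ± 0.289 CPM in control muscles, log2 fold change 1.24, SE 0.12, adjusted p = 9.89e-09, edgeR), and 1.09 on the log2 scale without space replicates 1 to 4.

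Bax (ENSMUSG00000003873.12) encodes a pore-forming protein of the mitochondrial outer membrane. Its lowest, median and highest levels were 3.82, 4.62 and 6.01 CPM in space muscles and 3.29, 3.93 and 5.08 CPM in control muscles, with 56 to 180 reads per library. The ranges overlapped, and 8 of 10 space libraries lay above the control mean. Bax did not pass the test (means 4.58 ± 0.635 CPM in space and 4.02 ± 0.538 CPM in control muscles, log2 fold change 0.18, SE 0.084, adjusted p = 0.083, edgeR). It did pass with library size alone (0.26, adjusted p = 0.0203), with upper-quartile scaling (0.24, adjusted p = 0.0235), without space replicate 3 (0.21, adjusted p = 0.0489) and without control replicate 6 (0.22, adjusted p = 0.0302). It did not pass without space replicates 1 to 4 (0.24, adjusted p = 0.063). The gene model Gm45808 shares 192 exonic bases with Bax on the same strand and had a median of 0 counts.

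Aen (ENSMUSG00000030609.19) encodes a nuclease induced in apoptosis. Its lowest level, median and highest level were 19.0, 23.2 and 24.7 CPM in space muscles and 23.1, 25.4 and 28.1 CPM in control muscles. Of the space libraries, 5 lay below the lowest control. Aen fell slightly (means 22.7 ± 1.80 CPM in space and 25.4 ± 1.40 CPM in control muscles, log2 fold change −0.16, SE 0.045, adjusted p = 0.00444, edgeR). The call was lost without space replicates 1 to 4 (−0.10, adjusted p = 0.0639) and with library size alone (−0.083, adjusted p = 0.105).

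Eda2r (ENSMUSG00000034457.11) encodes a receptor of ectodysplasin A2 that signals through NF-kB. Its change was close to that of Cdkn1a, and the order of the 2 turned without space replicate 7 (log2 fold changes of 1.87 for Eda2r and 1.89 for Cdkn1a). Lowest, median and highest levels were 42.2, 65.7 and 120.5 CPM in space muscles, against 12.6, 17.5 and 21.02 CPM in control muscles. The lowest space library, replicate 10, was above the highest control, and replicate 7 was the highest. Eda2r rose 3.99-fold (means 69.8 ± 23.8 CPM in space and 17.5 ± 2.19 CPM in control muscles, log2 fold change 2.00, SE 0.16, adjusted p = 4e-09, edgeR). The log2 fold change was 2.01 without space replicates 1 to 4.

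Zmat3 (ENSMUSG00000027663.13) encodes an RNA-binding zinc finger protein that regulates splicing and RNA stability. Its lowest, median and highest levels were 16.3, 20.1 and 21.9 CPM in space muscles and 25.4, 30.0 and 36.6 CPM in control muscles. All 10 space libraries lay below the lowest control. Zmat3 fell 1.52-fold (means 19.7 ± 1.69 CPM in space and 30.1 ± 3.95 CPM in control muscles, log2 fold change −0.61, SE 0.072, adjusted p = 4.08e-08, edgeR), and of the 4 genes that fell it alone also passed without space replicates 1 to 4 (−0.60).

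**Figure D2:**
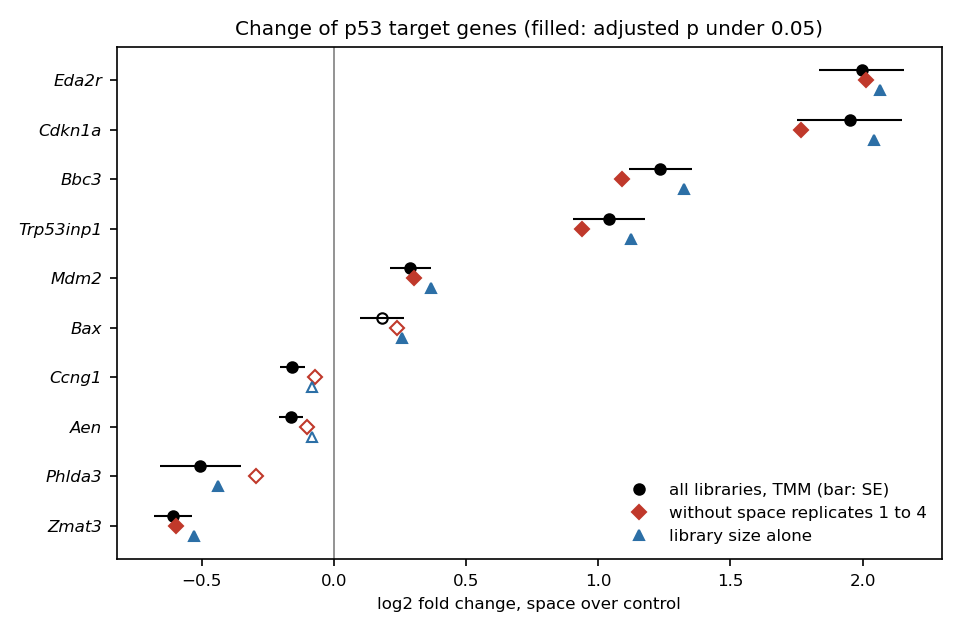
log2 fold change of space over control for the 10 p53 target genes under 3 settings: all libraries with TMM scaling (circles, bars give the SE), without space replicates 1 to 4 (diamonds) and library size alone (triangles). Filled symbols have an adjusted p under 0.05; the 5 genes that rose keep filled symbols in all 3 settings, while Phlda3, Aen and Ccng1 have an open one in at least 1.

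Per kilobase of merged exons, so that genes can be compared, Ccng1 was the highest with means of 151 CPM per kb in space and 168 CPM per kb in control muscles. Phlda3 came next with 39.9 and 56.6 CPM per kb in space and control muscles. Cdkn1a had 27.3 CPM per kb in space and 7.10 CPM per kb in control muscles, where it lay below Mdm2 at 7.71 CPM per kb. Bbc3 was at the low end, with 1.54 CPM per kb in space and 0.657 CPM per kb in control muscles. Exon lengths are from GENCODE M21 and count every annotated exon, used or not.

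The second question was whether libraries with more Cdkn1a had more of the other targets. Within the space group, r with Cdkn1a was positive for the 4 other genes that rose and negative for the 4 that fell and for Bax. None of the 18 correlations, 9 genes in 2 groups of 10 libraries, passed after adjustment. The lowest adjusted permutation p was 0.458 for Pearson's r and 0.310 for Spearman's rho. At an unadjusted p under 0.05 there was 1 gene by either measure, Trp53inp1 in control muscles.

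In space muscles, Bbc3 had r = 0.586 (permutation p = 0.0696, rho 0.576), Trp53inp1 r = 0.548 (p = 0.106, rho 0.321), Mdm2 r = 0.528 (p = 0.127, rho 0.261) and Eda2r r = 0.413 (p = 0.242, rho 0.236), all 2-sided permutation tests. Bax had the lowest value, r = −0.575 (permutation p = 0.0860, rho −0.321). The other 4 lay between −0.317 and −0.225. The range from the 5th to the 95th percentile of r over all 16777 other tested genes was −0.636 to 0.624 in space muscles, and every target gene lay within it.

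For some of the genes the value rested on the extreme libraries. Without space replicates 10 and 4, the 2 farthest from the median of Cdkn1a, r was −0.546 for Trp53inp1 and −0.0441 for Bax. It was 0.715 for Mdm2 (exact permutation p = 0.0560), 0.571 for Eda2r (exact p = 0.132) and 0.498 for Bbc3 (exact p = 0.207). With 1 space library left out in turn, r ranged from 0.049 to 0.746 for Eda2r. It ranged from 0.334 to 0.743 for Mdm2 and from 0.517 to 0.756 for Bbc3. Without space replicates 1 to 4, over 6 libraries, r was 0.794 for Eda2r (exact permutation p = 0.0667) and 0.791 for Mdm2 (exact p = 0.0875). Over the same 6 libraries r was 0.967 for Ccng1 (exact permutation p = 0.00278, adjusted p = 0.05), against −0.225 over all 10. The relation of Ccng1 to Cdkn1a thus changed sign without those 4 libraries. It also did over all 10 with library size alone (r = 0.073). TMM factors were 1.05 to 1.16 in space replicates 1 to 4 and 0.931 to 1.04 in all other libraries.

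Of 6 relations between Cdkn1a and total counts, TMM factor or summed myelin genes, that with the myelin genes in space muscles passed by rank: rho = 0.818 (permutation p = 0.00582, adjusted p = 0.0349), with r = 0.647 (permutation p = 0.0336, adjusted p = 0.152). Because replicates 1 to 4 stand apart in these genes, the relation was also taken over space replicates 5 to 10, where rho was 0.943 (exact permutation p = 0.0167) and r 0.840 (exact p = 0.0403). Without the 2 libraries farthest from the median of Cdkn1a it no longer passed (rho = 0.643, exact permutation p = 0.0962; r = 0.489, exact p = 0.223). In control muscles rho was 0.406 (permutation p = 0.246). Whether this relation had a part in the group difference of Cdkn1a was not tested.

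In control muscles the same p53 targets gave r = 0.472 for Bbc3 (permutation p = 0.170, rho 0.467), 0.184 for Eda2r (p = 0.641) and 0.109 for Mdm2 (p = 0.759). Trp53inp1 had r = −0.675 (permutation p = 0.0364, adjusted p = 0.458) and rho = −0.746 (permutation p = 0.0172, adjusted p = 0.310). This was the only target gene outside the 5th to 95th percentile of all genes in control muscles (−0.615 to 0.586). Without control replicates 2 and 7, the 2 farthest from the median of Cdkn1a, it was −0.555 (exact permutation p = 0.156), and Bbc3 was 0.733 (exact p = 0.0415). The difference between the groups' correlations was not tested.

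**Figure D3:**
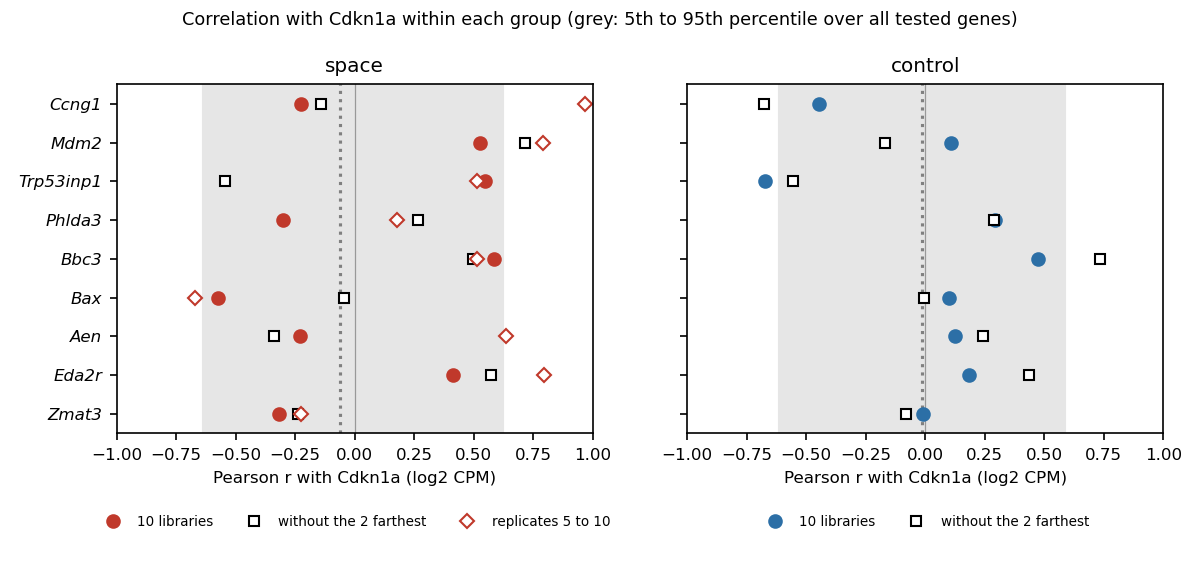
Pearson r of 9 p53 target genes with Cdkn1a, computed on log2 CPM within space libraries (left) and control libraries (right). Filled points use 10 libraries, squares leave out the 2 farthest from the median of Cdkn1a, diamonds use space replicates 5 to 10, and the grey band spans the 5th to 95th percentile of all tested genes, with their median dotted; Trp53inp1 in space muscles lies at 0.548 with 10 libraries and at −0.546 without the 2 farthest.

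**Figure D4:**
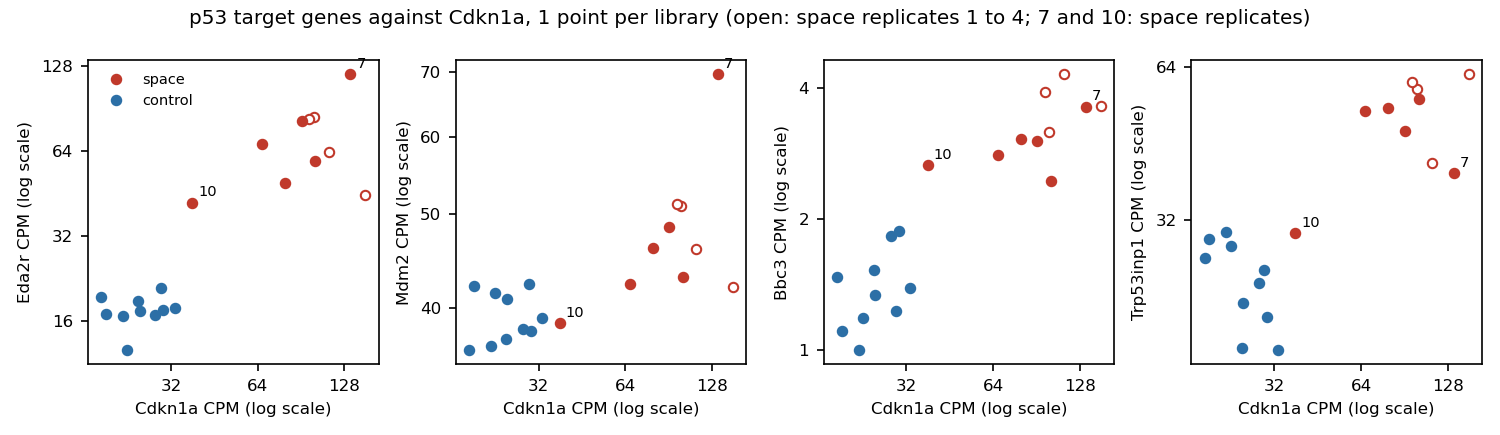
CPM of Eda2r, Mdm2, Bbc3 and Trp53inp1 against CPM of Cdkn1a in each library, both axes on log scales, with space in red (open for replicates 1 to 4) and control in blue. Space replicate 7 is the highest for Eda2r at 120.5 CPM and for Mdm2 at 69.7 CPM, and space replicate 10 has the least Cdkn1a of its group at 37.9 CPM.

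The genes whose pattern was most like that of Cdkn1a were found by Pearson's r over 20 libraries after subtraction of each group's mean, as a description. They were Prlr, the prolactin receptor, at 0.843, the kinase gene Prkcd at 0.807, Amigo2 at 0.797, Spock2 at 0.784 and the metallothionein gene Mt1 at 0.782. Their group differences did not all follow Cdkn1a: Prkcd was 1.72-fold, Mt1 1.48-fold and Spock2 1.44-fold higher, while Prlr was 2.01-fold lower (0.850 ± 0.631 CPM in space and 1.76 ± 0.501 CPM in control muscles) and Amigo2 was not called. Without space replicates 1 to 4, Mt1 (log2 fold change 0.37, adjusted p = 0.193) and Spock2 (0.40, adjusted p = 0.103) lost their calls, Amigo2 was called lower (−0.56, adjusted p = 0.00184) and Prlr was at −1.81 (edgeR). Among the p53 targets, Bbc3 ranked 496, Mdm2 774, Eda2r 1442 and Trp53inp1 4077 of 16777 genes. The other 5 had negative values and ranked far down: Aen 10569, Phlda3 10583, Zmat3 11142, Ccng1 13405 and Bax 14293. Library depth and composition are shared by all genes of a library and enter each of these values.

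Trp53 itself was not called, with 10.0 ± 1.24 CPM in space and 9.30 ± 1.26 CPM in control muscles (SD, n = 10 each; log2 fold change 0.11, SE 0.089, adjusted p = 0.265, edgeR). RNA does not report the amount or activity of the p53 protein. Of 16 tested genes among 18 regulators and relatives of p53, 7 were higher and 4 lower, with a median log2 fold change of 0.11. Over all tested genes, 28.7% were called higher and 28.9% lower. Trp63, which encodes the p53 relative p63, was 4.79-fold higher, with 33.5 ± 4.22 CPM in space and 7.01 ± 0.965 CPM in control muscles (adjusted p = 8.89e-16, edgeR). Its lowest space library had 27.0 CPM, and its highest control 8.28 CPM. Mdm4, which encodes an inhibitor of p53 related to Mdm2, was 1.62-fold higher, at 103 ± 11.8 CPM in space and 63.4 ± 2.73 CPM in control muscles (adjusted p = 4.31e-11, edgeR). Prkdc, the catalytic subunit of the DNA-dependent protein kinase, was 1.60-fold higher. Hipk2, a kinase that phosphorylates p53, was 1.77-fold lower.

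A wider list of 37 p53 targets had 32 tested genes, of which 7 were higher, 7 lower and 18 not called, with a median log2 fold change of 0.056. The share called was thus below the 57.6% of all genes. Trp53cor1, described with Cdkn1a, is among the 7 higher genes. Gadd45a, a DNA damage and muscle disuse gene, was 2.62-fold higher, at 9.68 ± 1.73 CPM in space and 3.72 ± 0.750 CPM in control muscles (adjusted p = 6.59e-10, edgeR). Cyfip2 was 3.07-fold lower, at 29.3 ± 6.55 CPM in space and 90.0 ± 13.8 CPM in control muscles (adjusted p = 6.94e-10, edgeR). Fdxr, a mitochondrial reductase gene, was 1.91-fold lower and Fbxw7, a ubiquitin ligase subunit gene, 1.54-fold lower. Unscaled library sizes raised the count of higher genes to 13, with 7 lower. That setting moved all genes the same way: 5946 of 16778 were higher and 3756 lower, against 4813 and 4850 with TMM scaling. It called 57.8% of all tested genes in either direction, and 6 of the 10 main targets higher and 2 lower.

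**Figure D5:**
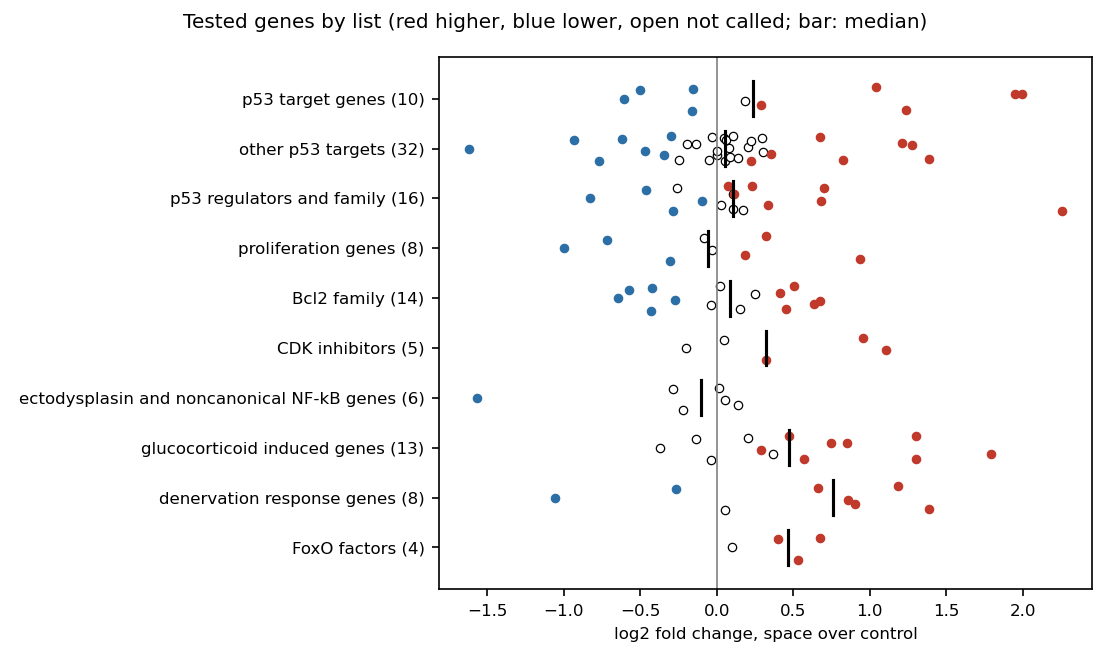
log2 fold change of space over control for the tested genes of each list, 1 point per gene, with the number tested in brackets. Red points were called higher, blue points lower and open points were not called, and the black bar is the list's median; the 10 p53 targets at the top have a median of 0.24 and the 32 tested genes of the wider p53 list 0.056.

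Genes that share a role with the targets gave the following counts, beside 28.7% of all tested genes called higher and 28.9% lower. Of 5 tested inhibitors of cyclin-dependent kinases other than Cdkn1a, 3 were higher and none lower: Cdkn1c 2.15-fold, Cdkn2c 1.94-fold and Cdkn1b 1.25-fold. Only 8 of 21 proliferation genes were tested, since the other 13 had few counts, and 3 were higher and 3 lower. Rrm2 was 1.91-fold higher and Mcm2 1.25-fold higher, while Mcm6 was 1.65-fold and Mcm3 1.24-fold lower. Mcm2, Mcm3 and Cdkn1b did not pass the test for a change beyond 1.2-fold, and Mcm3 did not pass with library size alone (adjusted p = 0.0593, edgeR). Of 14 genes of the Bcl2 family, 5 were higher and 5 lower. The survival gene Bcl2l2 was 1.49-fold lower, and the mitophagy receptor gene Bnip3l 1.33-fold higher while its relative Bnip3 was 1.57-fold lower. The proapoptotic gene Bad was 1.34-fold lower.

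Beside Eda2r, 6 genes of ectodysplasin and noncanonical NF-kB signalling were tested. None was higher and 1 was lower, against 28.7% and 28.9% of all tested genes. Traf3, an inhibitor of the noncanonical pathway, was 2.96-fold lower, at 15.9 ± 2.54 CPM in space and 47.0 ± 3.87 CPM in control muscles (adjusted p = 9.60e-14, edgeR). In the fit without space replicates 1 to 4, 3 of 7 tested genes were lower. That fit called 4466 of all 17122 tested genes lower and 4310 higher.

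Lists of genes tied to other known inducers of Cdkn1a and to muscle disuse were counted against the same 28.7% higher and 28.9% lower. Of 13 glucocorticoid-induced genes, 8 were higher, 5 not called and none lower, with a median log2 fold change of 0.47. The count of higher genes was 7 without space replicates 1 to 4. Fkbp5, a chaperone of the glucocorticoid receptor, was 3.47-fold higher, at 167 ± 38.2 CPM in space and 48.3 ± 15.6 CPM in control muscles (adjusted p = 4.58e-07, edgeR). Pik3r1 was 2.47-fold, Glul 2.46-fold and Tsc22d3 1.68-fold higher. Of 4 FoxO factor genes 3 were higher, Foxo6 1.59-fold, Foxo1 1.45-fold and Foxo4 1.32-fold. Of 8 tested denervation genes 5 were higher and 2 lower: besides Gadd45a, Hdac4 was 2.27-fold and Fst 1.87-fold higher, and the adhesion molecule gene Ncam1 was 2.08-fold lower. Whether p53 or any of these inducers accounted for a target's change was not tested.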

How the data were processed

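The authors deposited 1 table of raw counts per Ensembl gene for 20 libraries, with no normalization. Per the labels' protocols, RNA was purified from TriZol on columns, depleted of ribosomal RNA and sequenced in pairs from 90 ng. Per the submitters' processing notes, MultiQC 1.15, Subread, featureCounts 1.5.1, edgeR and the build GRCm39 were used; their roles, strand setting, annotation release and handling of multi-mapped reads are not stated there. Names were matched by Ensembl identifier through GENCODE M21 for 51948 of 56941 rows, with 97.6% of counts.

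The p53 targets, the gene lists and the alternatives were chosen with earlier results of these data known. The test was edgeR 4.0.16 (R 4.3.3) with filterByExpr at a minimum count of 10 and total of 15, TMM scaling, robust dispersion, quasi-likelihood test and Benjamini-Hochberg adjustment over 16778 genes with a threshold of 0.05. The common biological coefficient of variation was 0.149. CPM values use TMM-scaled library sizes, and log2 CPM a prior count of 2. Each SE belongs to the difference between the 2 groups' mean log2 CPM. No batch is labelled, no covariate entered the fit, and no 2 libraries were identical: the closest pair, space replicates 2 and 3, differed 1.60 times as much as counting error gives.

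Correlations used log2 CPM within a group, 2-sided, with 100000 resamples (exact below 10 libraries), adjusted over 18. Besides the 10 targets and Trp53, the text names for each list up to 4 called genes with the lowest p, and the 5 genes most like Cdkn1a with a mean of at least 1 CPM. Trp53cor1 was named outside this rule, after its values were seen. In simulated data with 16654 genes, the test recovered 38% of genes changed 1.25-fold, 94% at 1.5-fold and 100% at 2-fold and 3-fold. There, 9 of 175 calls were false. The simulation changed 50 genes at each fold, as many up as down and none of them scarce, and gave all genes the same dispersion. In the data 57.6% of genes were called and spread differed between genes. The simulated shares are thus not the power or error rate of the real comparison. Alternatives were DESeq2 1.42.0 size factors and test, upper-quartile factors, library size alone, limma-voom with quality weights (limma 3.58.1), no filter, a filter at 1 CPM in 10 libraries, removal of mitochondrial genes and the top 10 by abundance, a replicate block, glmTreat at 1.2-fold and each library left out. For correlations they were the CPM scale, a prior count of 0.5, other scalings and leaving out libraries. Leaving out space replicates 1 to 4 was added after seeing the data.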

Additional observations from a re-analysis of the deposited data

Results flagged for a closer look

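In 9 of 92 groups of 10 values tested, the highest or lowest library was far from the others by Dixon's criterion, which chance alone meets in about 1 of 20 groups. Among the p53 targets, Mdm2 had 69.7 CPM in space replicate 7, against 51.2 CPM in the next library. Bax had 6.01 CPM in space replicate 10, with 4.91 CPM in the next. Eda2r had 12.6 CPM in control replicate 5, the lowest of its group, with 16.7 CPM in the next. Mdm4 was also high in space replicate 7, at 134.3 CPM against 106 CPM in the next library. Space replicate 4 was the highest of its group for Cdkn2c at 9.13 CPM and for Prlr at 2.39 CPM. Cdkn1c was lowest in space replicate 1 at 13.9 CPM. Among control libraries, Mcm2 was highest in replicate 9 at 4.87 CPM and Prkcd in replicate 6 at 8.25 CPM. Without space replicate 7, and with each other library left out in turn, Mdm2 still passed the edgeR test, with log2 fold changes of 0.21 to 0.32 (adjusted p of 0.000757 to 0.0054).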

How the results depend on the processing

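Cdkn1a, Eda2r, Bbc3, Trp53inp1 and Zmat3 kept their direction and call under every alternative run, and Mdm2 did under all but the 1.2-fold test (0.29, adjusted p = 0.356). That test also lost Phlda3 (−0.51, adjusted p = 0.0614), Ccng1 (−0.16) and Aen (−0.16), leaving 1 of the 10 genes lower. Upper-quartile scaling lost Ccng1 (−0.098) and Aen (−0.10) and called Bax (0.24), leaving 2 lower. Library size alone lost Ccng1 (−0.083) and Aen (−0.083) and called Bax (0.26), again with 2 lower; it moved the median of all genes by 0.081 and the share of calls that were higher to 61.3%, against 49.8% with TMM and 58.8% with upper-quartile factors. It also gave 13 wider p53 targets higher and 1 denervation gene lower. Without space replicates 1 to 4, 1 target was lower (Phlda3 −0.30, Ccng1 −0.070 and Aen −0.10 lost), 3 ectodysplasin and NF-kB genes and 1 denervation gene were lower. With no filter on low counts, 10296 genes or 29.0% of those tested were called. Leaving out 1 library moved Bax between 0.13 and 0.22, with a call without space replicate 3 and without control replicate 6. Amigo2 passed without any 1 of space replicates 1 to 4 or control replicate 3 (−0.35 to −0.33), without all 4 of those space libraries (−0.56) and with limma-voom (−0.34). Mt1 and Spock2 lost their calls without those 4 libraries and in the 1.2-fold test (adjusted p of 0.0716 and 0.0737). Expression gave no sign of pairing by replicate number (correlations of same-numbered samples −0.132 to 0.0982, none best with its own number). This cannot show whether samples were paired in handling, which the labels do not give. With the number as a block 9470 genes were called, and no call on the 10 targets changed (Cdkn1a 1.90).

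None of the 18 correlations with Cdkn1a passed the adjusted threshold under any alternative run, while 14 values changed sign, and a further 11 with 1 library left out. In space muscles, library size alone gave r = 0.032 for Zmat3, 0.073 for Ccng1 and 0.115 for Aen. Without the 2 farthest libraries r was 0.265 for Phlda3 and −0.546 for Trp53inp1, and without space replicates 1 to 4 it was 0.179 for Phlda3, 0.967 for Ccng1 and 0.634 for Aen. In control muscles, library size alone gave −0.023 for Mdm2 and −0.067 for Aen, and leaving out the 2 farthest gave −0.170 for Mdm2 and −0.0048 for Bax. Zmat3 had 0.0019 on the CPM scale and 0.029 with DESeq2 size factors. With 1 library left out, r in space muscles ranged from −0.676 to 0.034 for Bax, −0.644 to 0.180 for Aen and −0.125 to 0.749 for Trp53inp1. In control muscles it ranged from −0.179 to 0.393 for Mdm2, −0.123 to 0.217 for Zmat3, −0.0088 to 0.317 for Bax and −0.0097 to 0.311 for Aen. The cause of these changes was not tested. Depth limits Bbc3 and Bax most, at 21 to 180 reads per library.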
